A study of Mus musculus with 8 samples.

Results

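Prg4-positive cells with few transcripts of the marker genes of neighbouring cell types were examined among the stromal cells of femurs from mice with and without a fracture. A cell was included when Prg4 made up at least 5 of every 10000 of its transcripts, counted as unique molecular identifiers (UMIs), and when it held fewer than 5 UMIs of Clec3b, Dpt and Mfap5 together, fewer than 3 of Kera and Tnmd together, at most 1 of Lrrc15 and 0 of Cdh5 and Ptprc. It also had to stay under 100 UMIs per 10000 of Bglap and Bglap2 and under 40 of Acan, Hapln1 and Matn3. The limits cap markers of other fibroblasts, tendon cells, activated stroma, endothelium, blood cells, osteoblasts and chondrocytes, and only those on Cdh5 and Ptprc require a gene to be absent. In all, 507 of the 45328 cells with 500 to 6000 genes and at most 25% mitochondrial UMIs met the rule. The cells were thus selected on their measured levels of these 14 genes, and for that reason the levels of those genes and the comparison with other cells are given as description, without a test.

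Prg4 encodes lubricin, the large secreted glycoprotein that coats joint surfaces and keeps them sliding with little friction. It is made mainly by the superficial cells of articular cartilage and by the lining fibroblasts of the synovium, and it is also found in tendon and its sheath. Hyaluronan, made by synthases such as Has1, shares the lubricating layer with it.

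All cells came from C57BL/6 females of 12 weeks. In the Fracture group the left femur had been broken by three-point bending at 10 weeks of age and stabilised with a nail in the marrow canal, and bone was taken at day 14 after fracture. The Control femurs were unfractured and age-matched. The Fracture mice had been anaesthetised with ketamine and xylazine and had received the analgesic carprofen in the first days and later as needed. The paper describes neither for the Control mice, so no comparison of the groups below can tell these drugs apart from the fracture. Cells of blood lineages and cells carrying CD45 or CD117 had been depleted with magnetic beads, and the remaining cells were sequenced with the Chromium 3′ kit. The sample titles number each group 1 and 2, each with a rep1 and a rep2, which was read as 2 preparations per group with 2 libraries each. The labels do not say what the numbers stand for, and every n and p-value rests on this reading. The sources do not give the number of animals in a preparation either, so the p-values measure the spread between preparations, which may in part be technical. Libraries held 56543151 to 89126291 UMIs over 4464 to 7485 barcodes. The tables of Control 1 hold no record of any gene whose symbol starts with U, n or a, 368 genes that made up 1.26% to 1.47% of the UMIs elsewhere. These genes were left out of every test. Cells without blood markers made up 77.5% and 77.0% of the kept cells of Control 1 and 2 and 96.6% and 96.5% of those of Fracture 1 and 2.

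The stretches upstream of 3 genes that the results turn on are shown first, read from RefSeq on GRCm38.p6 on the plus strand. They are Creb5, a CREB-family transcription factor known for its place in Prg4 expression in articular cartilage, Cilp, a matrix protein and label marker, and Cytl1, a secreted protein made by cartilage cells. The Creb5 stretch spans chr6:53287053-53287269, ahead of its first annotated exon, the Cilp stretch chr9:65264930-65265179 and the Cytl1 stretch chr5:37735269-37735518. Capitals mark a match to TGACGTCA, the palindromic site bound by CREB-family factors.
Creb5: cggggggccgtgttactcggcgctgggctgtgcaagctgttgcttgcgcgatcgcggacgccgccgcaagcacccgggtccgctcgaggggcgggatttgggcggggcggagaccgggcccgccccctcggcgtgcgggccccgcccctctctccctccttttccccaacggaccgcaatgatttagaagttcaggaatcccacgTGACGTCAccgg
Cilp: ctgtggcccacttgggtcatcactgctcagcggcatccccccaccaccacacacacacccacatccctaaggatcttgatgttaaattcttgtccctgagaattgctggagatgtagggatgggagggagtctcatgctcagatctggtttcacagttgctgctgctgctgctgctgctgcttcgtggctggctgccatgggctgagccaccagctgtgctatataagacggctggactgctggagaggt
Cytl1: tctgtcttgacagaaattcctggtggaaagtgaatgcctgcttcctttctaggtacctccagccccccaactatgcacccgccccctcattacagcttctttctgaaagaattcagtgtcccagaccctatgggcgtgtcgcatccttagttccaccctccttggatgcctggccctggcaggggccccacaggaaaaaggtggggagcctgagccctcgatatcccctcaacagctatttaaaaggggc
TGACGTCA and TGANTCA, the AP-1 site, were searched on both strands, each being its own reverse complement. The Creb5 stretch held TGACGTCA close to its end, 45 bases before the start that RefSeq gives. That start lies past the end of the stretch, which stops where an annotated exon begins, and the other stretches shown held neither motif. A second Creb5 stretch of the table, chr6:53573124-53573299, held neither. Among 32851 promoters of the table, 508 (1.55%) held TGACGTCA and 2217 (6.75%) held TGANTCA in the 250 bases before the start. A match describes these letters only.

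Npy and Cilp were far higher in Prg4-positive cells than in the other kept cells. Genes of the rule and mitochondrial genes were left out of the ranking. The 15 genes with the highest ratio of CPM (UMIs summed over the cells and scaled to their total), taken in the preparation where that ratio was lowest, were led by Npy, neuropeptide Y, at 754, 1233, 86.2 and 68.6 CPM in Control 1, Control 2, Fracture 1 and Fracture 2, against 10.6, 3.80, 1.15 and 1.68 CPM in the other cells. Cilp, cartilage intermediate layer protein, reached 11861, 8772, 1037 and 1744 CPM against 66.6, 27.01, 33.5 and 36.1 CPM. For both genes the Control preparations were higher than the Fracture preparations, and even the lowest preparation exceeded its other cells, by 40.8-fold for Npy and 30.9-fold for Cilp. Has1, which makes hyaluronan, stood at 77.2, 146, 138 and 245 CPM against 1.21, 1.09, 8.89 and 9.74 CPM. Creb5 stood at 156, 194, 69.7 and 99.8 CPM against 3.29, 2.76, 5.32 and 5.47 CPM. Sod3, an extracellular superoxide dismutase, was present at 615, 542, 354 and 476 CPM and Gas1, a co-receptor of hedgehog proteins, at 2989, 2061, 542 and 679.7 CPM. The other leading genes shown were Slurp1, Gm17455, Cilp2, Foxd1, Hbegf, Thbs4, Cdon and Smoc1, with lowest ratios of 7.89 to 21.6. The plot of these genes shows members apart from other cells in each preparation. Not all of these genes set the members apart from the nearest cell sets, which are defined with the comparisons further on. In fibroblasts with Clec3b, Dpt and Mfap5, Has1 stood at 75.5, 123, 159 and 154 CPM and Creb5 at 182, 251, 67.2 and 64.5 CPM. Thbs4 stood at 396, 306, 950.0 and 619 CPM there against 249.9, 199, 625 and 632 CPM in the members. Prg4-positive cartilage cells held Npy at 525, 2869, 118 and 322 CPM, more than the members in 3 of the 4 preparations, and Cilp at 7846, 10957, 1298 and 819.7 CPM, more than the members in 2 of them.

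**Figure D1:**
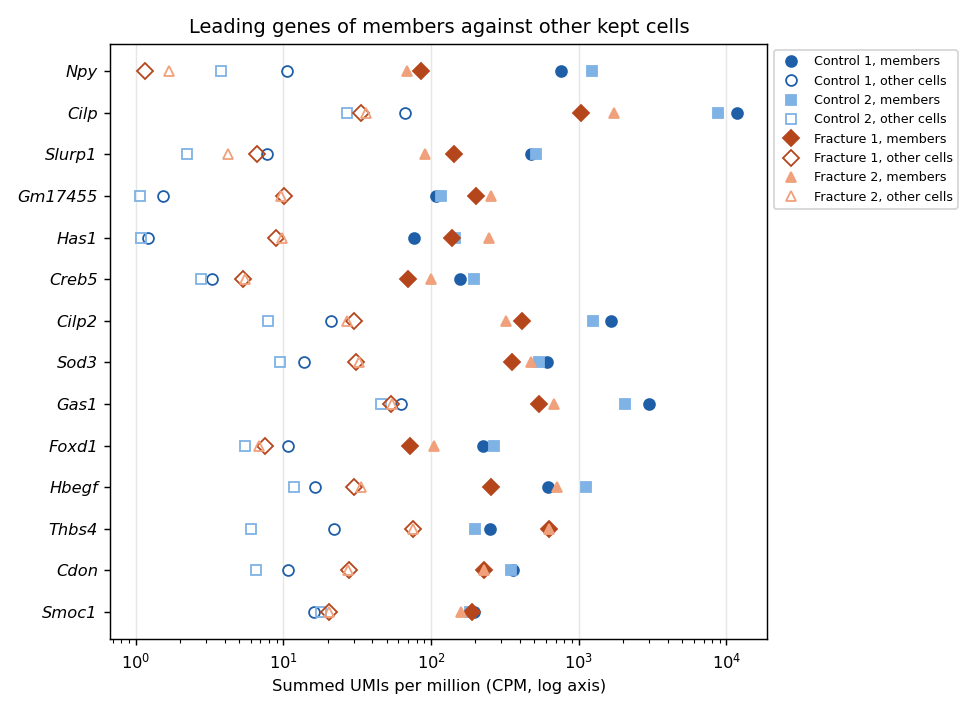
Summed CPM (log axis) of 14 of the 15 genes with the highest ratio in Prg4-positive cells (filled symbols) against all other kept cells (open symbols), by preparation. Each gene shown lies at least 7.89-fold higher in Prg4-positive cells in every preparation, and Npy and Cilp reach their highest levels in the Control preparations.

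The 4 label markers did not behave alike. Prg4 (chromosome 1, 150449412 to 150466165, minus strand, GRCm38) stood at 20991, 21288, 11487 and 20354 CPM against 113, 132, 107 and 137 CPM in other cells, as the rule requires. Igfbp6 (chromosome 15, 102144362 to 102149511, plus strand), which binds insulin-like growth factors, stood at 1132, 1007, 637 and 962 CPM against 42.5, 31.3, 141 and 133 CPM. Crabp2 (chromosome 3, 87948666 to 87953376, plus strand), a cytosolic carrier of retinoic acid, was low in Control members, at 26.2 and 21.1 CPM, and stood at 141 and 261 CPM in Fracture members, against 2.10, 2.27, 28.5 and 28.3 CPM in the other cells. Crabp2 UMIs were found in 16 of 350 Control and 63 of 157 Fracture members. Dcn, the proteoglycan decorin that fibroblasts secrete, made up 33245, 29712, 15010.1 and 13643 CPM. Col1a1, the main chain of type I collagen, stood at only 2011 and 1135 CPM in Control members. The 18 universal fibroblast genes summed to 40022, 36489, 21349 and 19143 CPM in the members, against 42086, 34675, 15044 and 14196 CPM in the Clec3b, Dpt and Mfap5 fibroblasts and 5148, 3555, 6499 and 6255 CPM in the other cells. The 18 cartilage genes measured summed to 39553, 37079.8, 17366 and 11767 CPM in the members, against 6268, 3129.9, 6186 and 8849 CPM in the Clec3b, Dpt and Mfap5 fibroblasts and 31394, 17182, 84068 and 81683 CPM in the other cells, and the 20 activated stroma genes to 29271, 30137, 45816 and 41059 CPM against 28697, 20603, 39652 and 37380.5 CPM in the other cells. Acan, the core protein of aggrecan, stood at 699, 747, 1143 and 992 CPM in the members. Control members thus held fibroblast and cartilage genes at like sums, with little Col1a1 and Crabp2, and the sums of both lists were lower in Fracture members. Dcn alone made up most of the universal fibroblast sums, and Cytl1 and Comp most of the cartilage sums of Control. Gene by gene, of 15 universal fibroblast genes tested as described below, 6 rose and 4 fell, with a median log2 fold change of 0.49. The cells are called Prg4-positive cells here, after the rule.

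The amount of Prg4 varied widely between single members. The median was 57.4 and 76.5 UMIs per 10000 in Control 1 and 2 and 14.6 and 21.8 in Fracture 1 and 2, and the highest cells held 1339, 879, 1492 and 2474. Members just inside the limit (5 to 6 per 10000) numbered 25 in Control and 8 in Fracture, and cells just outside it (4 to 5) numbered 25 and 13. Just inside, 17 of the 25 Control cells owed their place to a single Prg4 UMI and had a median of 1908 UMIs in all, while none of the Fracture cells did, at a median of 10474. Among the members, 51 of Control 1 and 9 of Control 2 held fewer than 3 Prg4 UMIs, against 0 of Fracture. The shallowest members held 833 and 1003 UMIs in Control 1 and 2 and 5369 and 3540 in Fracture 1 and 2. At the Fracture depths the limit itself asks for more than 1 Prg4 UMI, so this count is not read as a difference between the cells. Red blood cells, which should lack Prg4, held a Prg4 UMI in 3 of 98 Control cells (3.06%, exact 95% interval 0.636% to 8.69%, median 10953 UMIs) and 22 of 408 Fracture cells (5.39%, 3.41% to 8.05%, median 6256.5 UMIs), and 0 and 2 of them reached the limit. At those median depths 1 Prg4 UMI lies under the limit, so the counts of 0 and 2 do not bear on shallower members. Whether stray transcripts put members with 1 Prg4 UMI (43 of Control 1 and 7 of Control 2) inside the limit was not tested. Median depth of the members was 6282, 9136, 8513 and 9337 UMIs in Control 1, Control 2, Fracture 1 and Fracture 2. Members held 74.8%, 53.3%, 36.0% and 43.1% of all Prg4 UMIs of their preparation.

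The question of whether these cells change in number after fracture could not be settled with 2 preparations per group. Prg4-positive cells made up 2.23% and 0.821% of kept cells in Control 1 and 2 (285 and 65 cells) and 0.649% and 0.626% in Fracture 1 and 2 (77 and 80 cells). The mean was 1.53% ± 1.00 in Control and 0.637% ± 0.016 in Fracture (SD, n = 2 each), and the groups did not overlap. In a two-sided exact permutation test p was 0.333, the smallest value that this design allows. Most of the difference came from Control 1. Without it the difference was -0.183 percentage points, against -0.890 with it. With cells without blood markers as the denominator the difference was -1.25 percentage points. All cells that reached the Prg4 limit, before the other limits, made up 2.99%, 1.24%, 1.87% and 2.10% of the kept cells, with overlapping groups (exact permutation p = 1). Of these 970 cells, 238 exceeded the limit on Clec3b, Dpt and Mfap5, 126 that on Lrrc15 and 112 that on Acan, Hapln1 and Matn3. The other limits took a larger part of these cells in Fracture than in Control. They left 0.649% of 1.87% and 0.626% of 2.10% in Fracture, against 2.23% of 2.99% and 0.821% of 1.24% in Control. The comparisons of the groups below hold for the cells so left and not for all cells that reached the Prg4 limit.

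**Figure D2:**
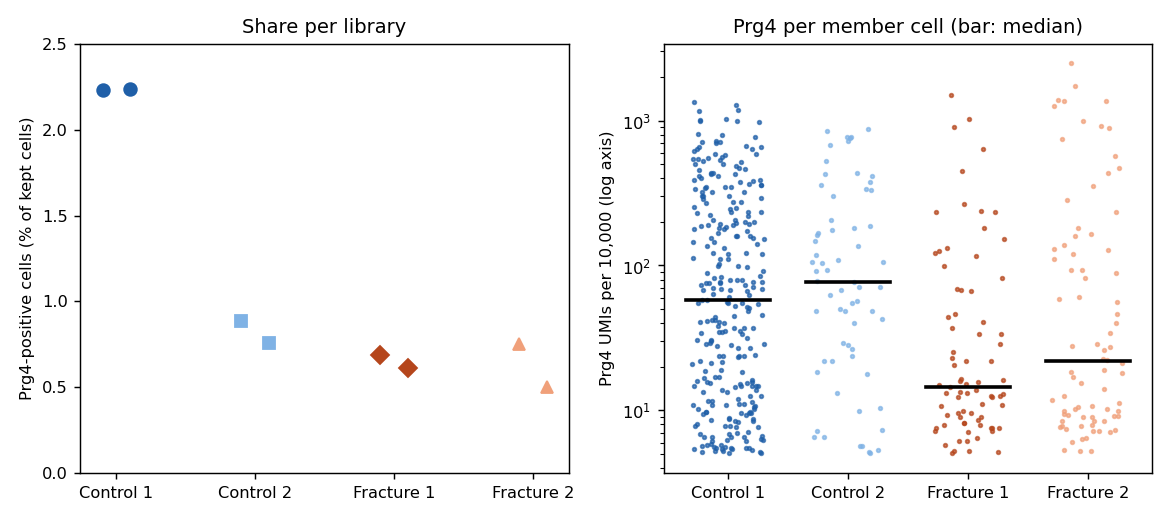
Share of Prg4-positive cells among kept cells in each of the 8 libraries (left, %) and Prg4 UMIs per 10000 UMIs of each member (right, log axis, bar at the median) by preparation. Both libraries of Control 1 lie near 2.23%, the other libraries lie under 1%, and the medians of the Control members exceed those of the Fracture members.

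Cytl1 (chromosome 5, 37735519 to 37739820, plus strand) divided the members. At least 5 Cytl1 UMIs per 10000 were held by 159 of 285 members of Control 1 (55.8%), 41 of 65 of Control 2 (63.1%), 3 of 77 of Fracture 1 (3.90%) and 8 of 80 of Fracture 2 (10.0%). The groups did not overlap (exact permutation p = 0.333, the smallest possible). Few cells lay near this value, with 8 members at 2.5 to 5 per 10000, 11 at 5 to 10, and 270 without a Cytl1 UMI. As a share of kept cells, Cytl1-rich members made up 1.25%, 0.518%, 0.0253% and 0.0626%, whereas members with less Cytl1 made up 0.988%, 0.303%, 0.624% and 0.563%, with overlapping groups (exact permutation p = 1). Within Control 1 and Control 2, the Cytl1-rich members had a median of 159 and 104 Prg4 UMIs per 10000, against 12.9 and 35.9 in the others. The others were also shallower, with a median of 4220.5 and 7672 UMIs against 7194 and 9701, and held more of the marrow stroma marker Cxcl12, at 1814 and 315 CPM against 757 and 47.5 CPM. Igfbp6 stood at 729 and 619 CPM in Cytl1-rich members and 1823 and 1903 CPM in the others, and Col1a1 at 1425 and 654 CPM against 3015 and 2248 CPM. Htra4, a secreted serine protease, went the same way, at 61.1 and 49.6 CPM against 77.9 and 94.9 CPM. Col2a1, the collagen of cartilage, was higher in the Cytl1-rich members, at 3389 and 4715 CPM against 1146 and 195 CPM. A comparison over sums of members therefore cannot tell fewer Cytl1-rich cells from less of a transcript per cell, and the counts of each main list are given below with all members and again with the 296 members under this Cytl1 level.

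**Figure D3:**
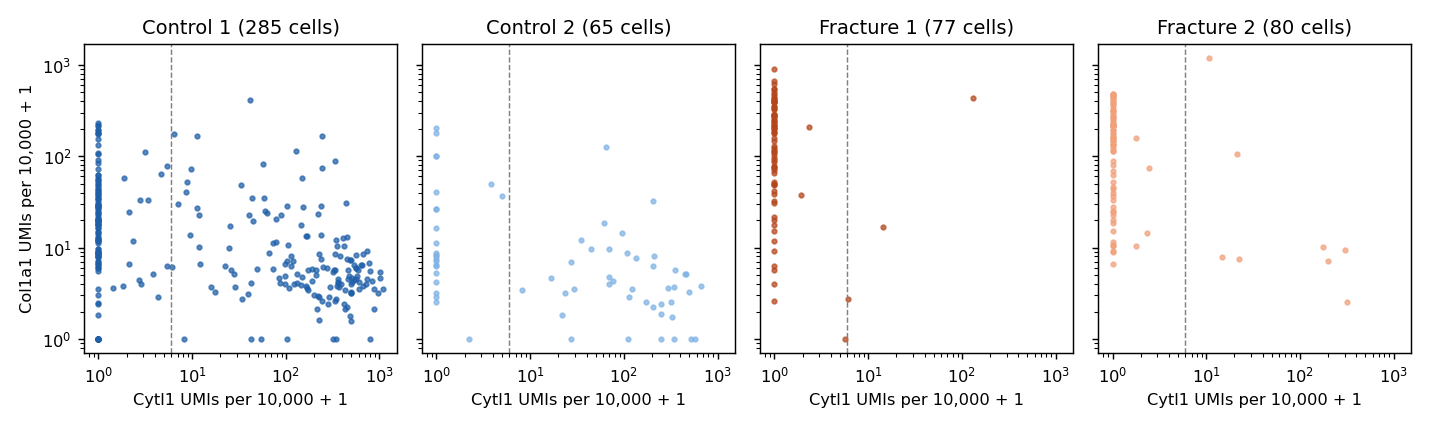
Cytl1 against Col1a1 in each Prg4-positive cell, both as UMIs per 10000 plus 1 (log axes), in 1 panel per preparation with a dashed line at the Cytl1 level of 5. In the Control panels 159 of 285 and 41 of 65 cells lie right of the line, and in the Fracture panels 3 of 77 and 8 of 80.

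To ask what differs between Control and Fracture in the cells that met all limits, UMIs were summed over the members of each preparation. The sums were compared with the quasi-likelihood test of edgeR. Of 7553 genes tested, 497 (6.58%) were higher and 474 (6.28%) lower in Fracture at an adjusted p under 0.05, 12.9% in all, and the median log2 fold change of all genes was -0.01. Among them were 8 genes of the rule, and the other 7545 held 494 higher and 472 lower. Levels are given from here on as CPM normalised by TMM. With library sizes alone in place of TMM, a setting added later, 636 genes were higher and 421 lower. With the Cytl1-poor members alone, 414 of 7563 genes were called, 198 higher and 216 lower. Without Fracture 2 the test called 255 genes, without Fracture 1 it called 495, and without Control 1 or Control 2 it called 926 and 1433. With 1 preparation left out its group holds a single preparation, the spread comes from the other group alone, and the single preparation is assumed to vary like that group. Shares of list members that rose or fell over all members are read against the 6.58% and 6.28% of all genes. Fewer genes were called over all genes among Cytl1-poor members and with 1 Fracture preparation left out. Fewer calls of a list in those settings are not read as particular to that list. Some genes stand in several lists, so the counts of the lists overlap.

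All 12 collagens of a list of fibrillar, fibril-associated and beaded types rose, against 6.58% of all genes, with a median log2 fold change of 2.45. Col1a1 stood at 2159 and 1213 normalised CPM in Control and 20751 and 17797 in Fracture (log2 fold change 3.51 ± 0.33 SE, edgeR adjusted p = 0.00020). Col3a1, which forms fibrils with type I collagen in healing tissue, stood at 1951 and 1023 normalised CPM in Control and 15736 and 13783 in Fracture (log2 fold change 3.31 ± 0.33 SE, edgeR adjusted p = 0.00028). Both Fracture preparations lay above both Control preparations for each collagen. Col5a1, which sets fibril diameter, stood at 237 and 166 normalised CPM in Control and 1400.0 and 1216 in Fracture (log2 fold change 2.68 ± 0.22 SE, edgeR adjusted p = 0.00010). Col12a1, which links fibrils to their surroundings, stood at 167 and 53.2 normalised CPM in Control and 1050.0 and 613 in Fracture (log2 fold change 2.83 ± 0.42 SE, edgeR adjusted p = 0.0020). Col1a1 was lowest in members richest in Prg4. It stood at 23121, 25103, 12326 and 3078 CPM in Fracture members with Prg4 at 5 to 10, 10 to 50, 50 to 200 and over 200 per 10000 (52, 54, 26 and 25 cells), against 3824, 3130, 1600 and 557 CPM in Control members (65, 94, 93 and 98 cells). It was higher in Fracture in each of these ranges, which pool preparations and were not tested. The smallest rise was that of Col16a1, with a log2 fold change of 1.05. Among Cytl1-poor members 10 of the 12 rose, Col1a1 with a log2 fold change of 2.88 (edgeR adjusted p = 0.0053), and the median was 2.03. Without Fracture 2, 10 of the 12 passed.

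Genes of activated stroma are the matrix and contractile genes that fibroblasts switch on in wounds. Of 19 tested, 11 rose and 0 fell, with a median log2 fold change of 1.41. Postn, the matricellular protein periostin, stood at 11.7 and 6.45 normalised CPM in Control and 954 and 622 in Fracture (log2 fold change 6.27 ± 0.33 SE, edgeR adjusted p = 1.2e-05). Its UMIs were found in 18 of 350 Control and 100 of 157 Fracture members. Cthrc1, a secreted protein of wound fibroblasts, stood at 24.97 and 6.45 normalised CPM in Control and 825 and 920.1 in Fracture (log2 fold change 5.53 ± 0.36 SE, edgeR adjusted p = 2.9e-05). Tnc, tenascin C, stood at 184 and 38.7 normalised CPM in Control and 769.7 and 727 in Fracture (log2 fold change 2.65 ± 0.47 SE, edgeR adjusted p = 0.0051), and Acta2, smooth muscle actin, at 19.1 and 30.6 normalised CPM in Control and 64.1 and 58.2 in Fracture (log2 fold change 1.41 ± 0.29 SE, edgeR adjusted p = 0.010). The limit of the rule on Lrrc15, another gene of this state, kept the cells richest in it out of the members. Among Cytl1-poor members 6 of 20 rose, as did 6 of 20 without Fracture 2, and Postn kept a log2 fold change of 5.35 in Cytl1-poor members (edgeR adjusted p = 0.0023). Without Fracture 2 Tnc and Acta2 did not pass the edgeR test (adjusted p = 0.11 and 0.13), nor did Acta2 without Control 1 or Fracture 1 (0.057 and 0.060).

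Several matrix-degrading enzymes rose. Of the 20 proteases and inhibitors tested, 13 rose and 2 fell, with a median log2 fold change of 1.36. Mmp2, a gelatinase, stood at 61.6 and 45.1 normalised CPM in Control and 803 and 765 in Fracture (log2 fold change 3.83 ± 0.22 SE, edgeR adjusted p = 1.6e-05). Mmp14, the membrane-bound enzyme that activates it, stood at 41.98 and 38.7 normalised CPM in Control and 616 and 424 in Fracture (log2 fold change 3.67 ± 0.24 SE, edgeR adjusted p = 2.9e-05). For both genes the lowest Fracture preparation lay far above the highest Control preparation. Mmp13, a collagenase of hypertrophic cartilage and bone, differed more between the Fracture preparations, at 133 and 49.95 normalised CPM in Control and 2362 and 624 in Fracture (log2 fold change 3.95 ± 0.59 SE, edgeR adjusted p = 0.0020). Mmp3 stood at 81.8 and 33.8 normalised CPM in Control and 527 and 347 in Fracture (log2 fold change 2.80 ± 0.34 SE, edgeR adjusted p = 0.00062). The aggrecanases moved apart. Adamts4 had a log2 fold change of 3.01, at 1.61 to 2.13 CPM in Control and 14.5 to 19.5 CPM in Fracture, whereas Adamts5 fell, at 169 and 149.9 normalised CPM in Control and 40.4 and 41.2 in Fracture (log2 fold change -1.97 ± 0.20 SE, edgeR adjusted p = 0.00028). Among inhibitors Timp1 rose, at 588 and 1006 normalised CPM in Control and 2561 and 2872 in Fracture (log2 fold change 1.78 ± 0.26 SE, edgeR adjusted p = 0.0017), and Timp3 fell, at 174 and 177 normalised CPM in Control and 59.96 and 70.3 in Fracture (log2 fold change -1.43 ± 0.19 SE, edgeR adjusted p = 0.00091). Among Cytl1-poor members 6 of 20 rose and 2 fell, without Fracture 1 it was 8 of 21 and 2, and without Fracture 2 6 of 22 and 2. Timp1 did not pass the edgeR test without Fracture 2 (adjusted p = 0.060).

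More genes of the joint lining and articular surface fell than rose. Of 26 tested, 4 rose and 12 fell, where 6.28% of all genes fell, and the median log2 fold change was -1.01. Many of these genes had been found in the members themselves, so the list describes them and does not stand apart from them. Cytl1 stood at 20547 and 14472 normalised CPM in Control and 176 and 993 in Fracture (log2 fold change -4.90 ± 0.67 SE, edgeR adjusted p = 0.0011). Cilp (chromosome 9, 65265180 to 65280605, plus strand), whose upstream stretch is printed above, stood at 12735 and 9382 normalised CPM in Control and 1057 and 1758 in Fracture (log2 fold change -2.97 ± 0.31 SE, edgeR adjusted p = 0.00030). Clu (chromosome 14, 65968483 to 65981547, plus strand), the secreted chaperone clusterin, stood at 10162 and 6931 normalised CPM in Control and 605 and 1126 in Fracture (log2 fold change -3.30 ± 0.34 SE, edgeR adjusted p = 0.00030). For all 3 genes the Control preparations lay well above the Fracture preparations. Abi3bp, an extracellular matrix protein, stood at 2547 and 2755 normalised CPM in Control and 372 and 369 in Fracture (log2 fold change -2.84 ± 0.20 SE, edgeR adjusted p = 4.0e-05). 1500015O10Rik, which encodes the secreted peptide precursor Ecrg4, stood at 17012 and 18093 normalised CPM in Control and 4196 and 2005 in Fracture (log2 fold change -2.50 ± 0.35 SE, edgeR adjusted p = 0.0012). Wif1, a secreted inhibitor of Wnt proteins, stood at 1042 and 854 normalised CPM in Control and 109 and 204 in Fracture (log2 fold change -2.60 ± 0.28 SE, edgeR adjusted p = 0.00033). The transcription factors of the list moved less. Creb5 stood at 168 and 208 normalised CPM in Control and 71.1 and 101 in Fracture (log2 fold change -1.11 ± 0.22 SE, edgeR adjusted p = 0.0088) and Foxo1 at 191 and 195 normalised CPM in Control and 69.7 and 121 in Fracture (log2 fold change -1.003 ± 0.24 SE, edgeR adjusted p = 0.023), while Erg did not pass the test, at 45.7 and 24.2 normalised CPM in Control and 13.9 and 23.03 in Fracture (edgeR adjusted p = 0.12). The members of the list that rose were Crabp2, Thbs4, Dkk3 and Aqp1. Crabp2 stood at 28.2 and 22.6 normalised CPM in Control and 144 and 263 in Fracture (log2 fold change 2.95 ± 0.31 SE, edgeR adjusted p = 0.00030) and the matrix protein Thbs4 at 268 and 213 normalised CPM in Control and 637 and 636 in Fracture (log2 fold change 1.39 ± 0.19 SE, edgeR adjusted p = 0.00097). Crabp2 was higher in Fracture in members with Prg4 at 5 to 10, 10 to 50 and 50 to 200 per 10000 (243, 274 and 173 CPM against 4.55, 18.7 and 17.6 CPM in Control) and lower in those over 200 (4.00 against 41.7 CPM). Gdf5, a growth factor of developing joints, stood at 22.3 and 27.4 normalised CPM in Control and 41.8 and 44.9 in Fracture and missed the threshold (edgeR adjusted p = 0.072). Creb5 did not pass without Fracture 1 or Fracture 2 (edgeR adjusted p = 0.084 and 0.057) and Foxo1 not without Fracture 1 (0.18), and the number that rose was 6 without Control 2 and 2 without Fracture 2.

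Prg4 itself was part of the rule and is given as a level only, at 22537 and 22766 normalised CPM in Control and 11713 and 20511 in Fracture. The median per cell was lower in Fracture, as given above.

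The fall of the joint genes held in part among Cytl1-poor members, where 2 of the 26 rose and 7 fell. Over all 7563 genes tested there, 198 rose and 216 fell. The 7 falls include Cytl1, by which these members were chosen. Cilp had a log2 fold change of -2.60 there (edgeR adjusted p = 0.013), Clu of -3.05 (edgeR adjusted p = 0.0058) and Abi3bp of -2.80 (edgeR adjusted p = 0.0023). Wif1, 1500015O10Rik and Creb5 did not pass there, with log2 fold changes of -0.77, -0.78 and -1.20 (edgeR adjusted p = 0.48, 0.36 and 0.054). Crabp2 rose there by 1.89 on the log2 scale (edgeR adjusted p = 0.026). Igfbp6 did not pass in either set, at 1216 and 1076 normalised CPM in Control and 649.8 and 969.8 in Fracture over all members (edgeR adjusted p = 0.18).

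**Figure D4:**
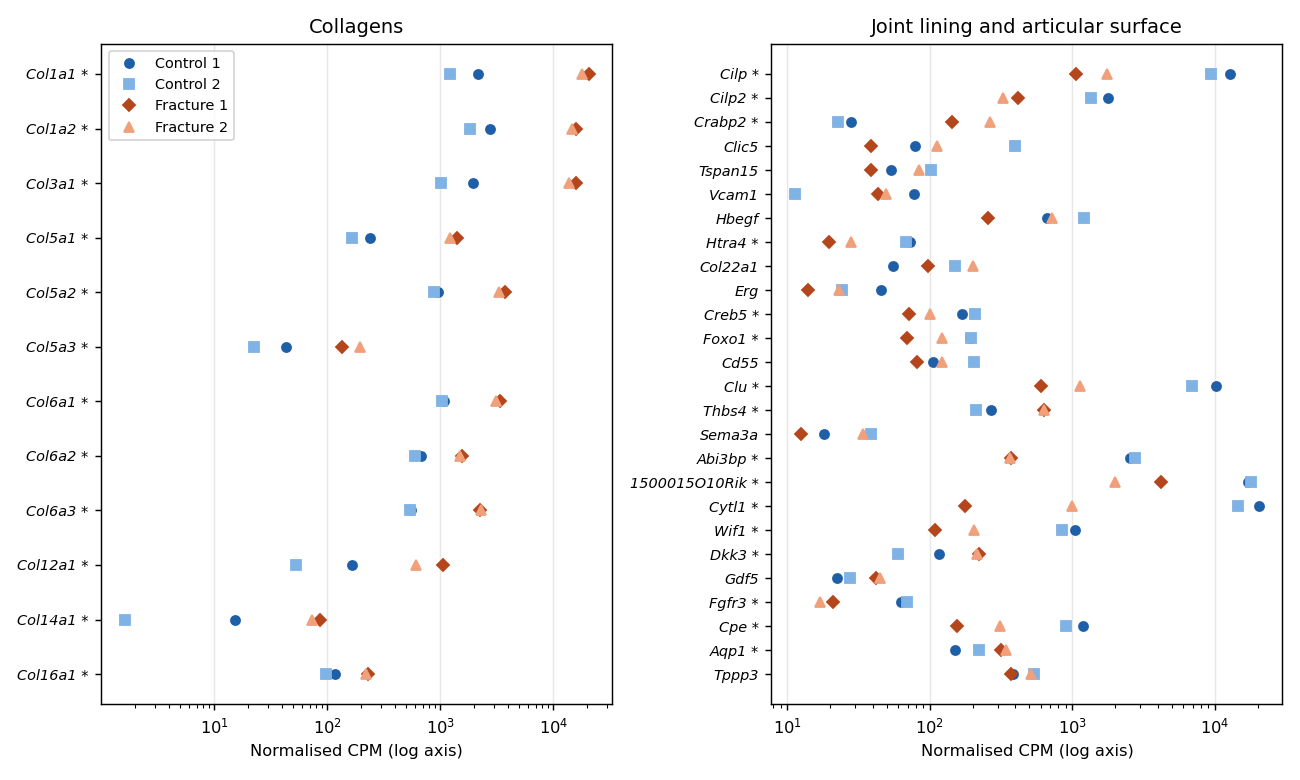
Normalised CPM (log axes) of the 12 collagens (left) and 26 joint lining and articular surface genes (right) in the Prg4-positive cells of each preparation, with an asterisk where the edgeR adjusted p was under 0.05. All 12 collagens lie higher in both Fracture preparations, and 12 joint genes, led by Cytl1, Clu and Cilp, carry an asterisk and lie lower.

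Cells with a UMI of each label marker were counted after every member had been thinned to 2000 UMIs, which left out 66 Control and 0 Fracture members of lower depth. Cilp was found in 84.1% and 64.9% of the thinned members of Control 1 and 2 and 37.7% and 30.0% of Fracture 1 and 2, and without thinning in 72.6%, 63.1%, 54.5% and 47.5%. Crabp2 was found in 1.76%, 3.51%, 18.2% and 28.8% (3.86%, 7.69%, 37.7% and 42.5% without thinning). Igfbp6 was found in 49.8%, 50.9%, 51.9% and 57.5% (50.2%, 56.9%, 77.9% and 82.5% without thinning). In these settings the groups did not overlap for any of the 3 genes, and each exact permutation p was 0.333, the smallest possible. Thinned to 1000 UMIs, Igfbp6 overlapped between the groups, at 33.6%, 41.5%, 39.0% and 48.8% (exact permutation p = 0.667).

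The hyaluronan synthases Has1 and Has2 did not pass the test, Has1 at 82.9 and 156 normalised CPM in Control and 141 and 247 in Fracture (edgeR adjusted p = 0.16). Of the 7 lubricant and hyaluronan list genes tested, 2 rose and 1 fell. Tnfaip6, which cross-links hyaluronan in inflamed tissue, stood at 47.3 and 38.7 normalised CPM in Control and 177 and 293 in Fracture (log2 fold change 2.42 ± 0.27 SE, edgeR adjusted p = 0.00039), and Cd44, its cell surface receptor, at 122 and 164 normalised CPM in Control and 201 and 276 in Fracture (log2 fold change 0.76 ± 0.22 SE, edgeR adjusted p = 0.049). Vcan, the hyaluronan-binding proteoglycan versican, fell, at 807 and 606 normalised CPM in Control and 282 and 359 in Fracture (log2 fold change -1.14 ± 0.21 SE, edgeR adjusted p = 0.0060). Among Cytl1-poor members 1 of 7 rose and 1 fell, and Cd44 was not called (log2 fold change -0.27, edgeR adjusted p = 0.64). Cd44 did not pass the edgeR test without Control 1 or Fracture 2 (adjusted p = 0.20 and 0.38), nor Vcan without Fracture 1 or Fracture 2 (0.051 and 0.059).

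Small proteoglycans of collagen fibrils split evenly, and of 9 tested, 4 rose and 4 fell (44.4% each, against 6.58% and 6.28% of all genes). Lum stood at 689.7 and 585 normalised CPM in Control and 3338 and 2040.2 in Fracture (log2 fold change 2.07 ± 0.26 SE, edgeR adjusted p = 0.00066) and Bgn at 1991 and 1737 normalised CPM in Control and 6587 and 5774 in Fracture (log2 fold change 1.73 ± 0.22 SE, edgeR adjusted p = 0.00069). Dcn, the most abundant of them, fell, at 35694 and 31775 normalised CPM in Control and 15305 and 13748 in Fracture (log2 fold change -1.22 ± 0.27 SE, edgeR adjusted p = 0.015). Chad, a cartilage protein that binds cells to collagen, fell as well, at 4666 and 6276 normalised CPM in Control and 1032 and 628 in Fracture (log2 fold change -2.72 ± 0.29 SE, edgeR adjusted p = 0.00031). In the cartilage list, of 15 tested, 1 rose and 4 fell (6.67% and 26.7%), the rise being no more common than over all genes. The rule kept cells rich in Acan, Hapln1 and Matn3 out of the members, and those rich in Kera and Tnmd. The counts of the cartilage list and of the tendon and ligament list hold only for the cells so limited. Sox9, the master regulator of cartilage cells, had a log2 fold change of -0.70 (edgeR adjusted p = 0.033). Col2a1 overlapped between the groups, at 2752 and 3584 normalised CPM in Control and 4461 and 1622 in Fracture. In the tendon and ligament list, of 12 tested, 6 rose and 2 fell, or 50% and 16.7%, against 6.58% and 6.28% of all genes. Among the 6 rises were Col12a1, Col14a1 and Col5a1, counted above with the collagens, and Thbs4, counted above with the joint genes. Scx, the transcription factor of tendon cells, stood at 32.9 and 29.01 normalised CPM in Control and 102 and 108 in Fracture (log2 fold change 1.73 ± 0.21 SE, edgeR adjusted p = 0.00062), whereas Tnxb, tenascin X, fell, at 376 and 380.3 normalised CPM in Control and 11.2 and 59.4 in Fracture (log2 fold change -3.38 ± 0.44 SE, edgeR adjusted p = 0.00084). Among Cytl1-poor members 3 of 9 rose and 2 fell in the proteoglycan list, 2 of 15 rose and 2 fell in the cartilage list and 4 of 13 rose and 2 fell in the tendon and ligament list. The 2 falls of the cartilage list include Cytl1, by which these members were chosen. Dcn and Sox9 were not called there (edgeR adjusted p = 0.075 and 0.15), Sox9 with its direction turned (log2 fold change 0.76). Without Fracture 2, Dcn did not pass (edgeR adjusted p = 0.089), and 2 small proteoglycans and 2 cartilage genes fell. Without Fracture 1 none of the cartilage genes rose, and without Control 2, 2 cartilage genes rose and 6 tendon and ligament genes fell.

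Growth factors and their modulators are set against the 6.58% of all genes that rose and the 6.28% that fell. Of the 22 BMP and TGF-beta genes tested, 4 rose and 5 fell (18.2% and 22.7%). Bmp2 fell, at 227 and 414 normalised CPM in Control and 50.2 and 58.2 in Fracture (log2 fold change -2.54 ± 0.30 SE, edgeR adjusted p = 0.00051), and Tgfb2 rose, at 34.5 and 46.7 normalised CPM in Control and 137 and 145 in Fracture (log2 fold change 1.86 ± 0.21 SE, edgeR adjusted p = 0.00046). Of the 10 Wnt genes tested, 3 rose and 3 fell (30% each). The ligand Wnt5a stood at 1.59 and 1.61 normalised CPM in Control and 27.9 and 40 in Fracture (log2 fold change 4.32 ± 0.52 SE, edgeR adjusted p = 0.00059), and Notum, an enzyme that inactivates Wnt ligands, at 20.2 and 19.3 normalised CPM in Control and 8.37 and 3.64 in Fracture (log2 fold change -1.75 ± 0.48 SE, edgeR adjusted p = 0.041). Of the 9 IGF genes tested, 3 rose and 1 fell (33.3% and 11.1%). Igf1 stood at 49.4 and 14.5 normalised CPM in Control and 172 and 139 in Fracture (log2 fold change 2.06 ± 0.35 SE, edgeR adjusted p = 0.0039). Pappa, a protease that frees IGF from its binding proteins, fell, at 98.8 and 61.2 normalised CPM in Control and 19.5 and 10.9 in Fracture (log2 fold change -2.47 ± 0.35 SE, edgeR adjusted p = 0.0015). Of 9 retinoid genes tested, 1 rose and 1 fell (11.1% each), close to the share over all genes. They were Crabp2 and Rbp4, the retinol carrier of plasma, which fell, at 800.2 and 290.1 normalised CPM in Control and 202 and 82.4 in Fracture (log2 fold change -1.97 ± 0.47 SE, edgeR adjusted p = 0.022). Without Fracture 2 the edgeR test no longer called Wnt5a, Igf1, Pappa and Rbp4 (adjusted p = 0.088, 0.081, 0.065 and 0.26). Notum was not called once any 1 preparation was left out (edgeR adjusted p = 0.051 to 0.34). Among Cytl1-poor members 3 of 21 rose and 2 fell of the BMP and TGF-beta genes, 2 of 9 rose and 0 fell of the Wnt genes, 3 of 10 rose and 2 fell of the IGF genes and 1 of 10 rose and 0 fell of the retinoid genes, and Rbp4 was not called (log2 fold change -0.16, edgeR adjusted p = 0.95). With 1 preparation left out, 3 to 5 BMP and TGF-beta genes rose and 2 to 8 fell, 0 to 3 Wnt genes rose and 1 to 4 fell, 1 to 4 IGF genes rose and 0 to 3 fell, and 1 to 3 retinoid genes rose and 0 to 3 fell, the counts of rises without Fracture 2 being the lowest or level with the lowest.

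Prostaglandin enzymes moved in both directions, and of the 8 inflammatory genes tested, 3 rose and 2 fell (37.5% and 25%, against 6.58% and 6.28% of all genes). Ptgs2, the inducible cyclooxygenase, stood at 3.72 and 1.61 normalised CPM in Control and 80.9 and 95.8 in Fracture (log2 fold change 4.75 ± 0.36 SE, edgeR adjusted p = 6.6e-05). Ptges, which makes prostaglandin E2, stood at 4.78 and 6.45 normalised CPM in Control and 54.4 and 38.8 in Fracture (log2 fold change 3.11 ± 0.39 SE, edgeR adjusted p = 0.00072), and Ptgis, which makes prostacyclin, fell, at 385 and 355 normalised CPM in Control and 158 and 153 in Fracture (log2 fold change -1.25 ± 0.18 SE, edgeR adjusted p = 0.0013). The chemokines rested on few cells. Ccl5 was at 0 UMIs in Control and at 128 and 182 CPM in Fracture, at least 134-fold higher when Control is set at 3 counts over the group, but only 14 Fracture members held it and a single cell gave 38.0% of its UMIs in Fracture 1 and 59.3% in Fracture 2. Ccl2 UMIs were found in 4 Control and 6 Fracture members, with 98.3% and 70.0% of the UMIs of Fracture 1 and 2 in a single cell each (log2 fold change 5.10 ± 0.49 SE, edgeR adjusted p = 0.00021). Among Cytl1-poor members 3 of 9 rose and 1 fell, Ptgs2 had a log2 fold change of 3.61 (edgeR adjusted p = 0.0097) and Ptgis was not called (edgeR adjusted p = 0.055). With 1 preparation left out more genes of the list were tested, and 3 to 9 rose and 1 to 4 fell, the lowest counts coming without Fracture 2.

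Of the 19 cell cycle genes tested, 11 rose and 0 fell. Cdk1, the kinase of mitotic entry, stood at 7.44 and 16.1 normalised CPM in Control and 80.9 and 37.6 in Fracture (log2 fold change 2.54 ± 0.47 SE, edgeR adjusted p = 0.0060), and Birc5, survivin, at 6.91 and 12.9 normalised CPM in Control and 106 and 35.2 in Fracture (log2 fold change 2.99 ± 0.55 SE, edgeR adjusted p = 0.0061). Among Cytl1-poor members 4 of 19 rose and 0 fell, and Birc5 was not called (edgeR adjusted p = 0.065). Fewer genes of the list rose with either Fracture preparation left out, as over all genes, and this is not read as particular to the list. Cdk1 and Birc5 missed the edgeR threshold without Fracture 1. Without Fracture 2, 5 of 23 rose. Members with a UMI of Top2a or Mki67 made up 3.96%, 7.02%, 14.3% and 11.3% after thinning to 2000 UMIs and 12.3%, 20%, 23.4% and 13.8% without thinning. Thinned to 1000 UMIs they made up 5.47%, 10.8%, 6.49% and 3.75%, with the direction turned, so no difference in this share was read. Of the 18 glycolysis and hypoxia genes tested, 10 rose and 0 fell, with a median log2 fold change of 0.70. Ldha, which makes lactate, stood at 649 and 504 normalised CPM in Control and 1155 and 1080.1 in Fracture (log2 fold change 0.95 ± 0.19 SE, edgeR adjusted p = 0.0099), and the angiogenic factor Vegfa at 44.6 and 25.8 normalised CPM in Control and 79.5 and 107 in Fracture (log2 fold change 1.30 ± 0.27 SE, edgeR adjusted p = 0.011). Among Cytl1-poor members 8 of 18 rose and 0 fell. Without Fracture 2, 0 of the 18 passed the edgeR test and 16 were higher in Fracture, without Fracture 1 4 passed, and with DESeq2 4 of the 18 passed.

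The 12 largest rises among genes averaging at least 20 CPM were those of Ccl5, C1qtnf3, Tnn, Cdkn3, Postn, Cthrc1, Ccl2, Ptgs2, H19, Spon2, Mmp13 and Fscn1. C1qtnf3, a secreted protein of cartilage and its covering, held 3 UMIs in Control and 362 in Fracture, a ratio of rates of 209 (95% counting interval 70.8 to 1016), in 3 and 71 members. Tnn, tenascin W, stood at 4.25 and 1.61 normalised CPM in Control and 332 and 325 in Fracture (log2 fold change 6.49 ± 0.29 SE, edgeR adjusted p = 5.7e-06), in 4 Control and 98 Fracture members. H19, an imprinted noncoding RNA, stood at 15.9 and 0 normalised CPM in Control and 215 and 215 in Fracture (log2 fold change 4.24 ± 0.46 SE, edgeR adjusted p = 0.00035). Spon2, a secreted matrix protein, stood at 15.9 and 0 normalised CPM in Control and 236 and 145 in Fracture (log2 fold change 4.06 ± 0.50 SE, edgeR adjusted p = 0.00065), and Fscn1, which bundles actin, at 4.25 and 1.61 normalised CPM in Control and 50.2 and 54.6 in Fracture (log2 fold change 3.84 ± 0.40 SE, edgeR adjusted p = 0.00030). H19 and Spon2 held no UMI in Control 2, did not pass with DESeq2 (adjusted p = 0.21 and 0.27), and H19 had a log2 fold change of 2.64 with a cartilage limit of 20. Cdkn3, a cell cycle phosphatase, held 1 UMI in Control and 68 in Fracture (ratio of rates 118, 95% counting interval 20.4 to 4709), with 73.9% of those of Fracture 2 in a single cell. All 12 rises also passed among Cytl1-poor members, H19 with a log2 fold change of 3.20 and Mmp13 of 2.90.

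The 12 largest falls were those of Prg2, Prss34, Ppbp, Pf4, Ctla2a, Mcpt8, Serpina1e, Angptl7, Cytl1, Myoc, Serpina1b and Mall. Angptl7, a secreted protein of cartilage and tendon, stood at 1005 and 846 normalised CPM in Control and 5.58 and 41.2 in Fracture (log2 fold change -5.25 ± 0.49 SE, edgeR adjusted p = 0.00020). Its UMIs were found in 99 of 350 Control and 4 of 157 Fracture members. Myoc, myocilin, stood at 382 and 1046 normalised CPM in Control and 2.79 and 63.04 in Fracture (log2 fold change -4.37 ± 0.74 SE, edgeR adjusted p = 0.0040), and Mall, a membrane protein, at 74.9 and 82.2 normalised CPM in Control and 4.18 and 3.64 in Fracture (log2 fold change -4.28 ± 0.36 SE, edgeR adjusted p = 0.00010). Myoc did not pass with DESeq2 (adjusted p = 0.13). Mall UMIs were found in 110 Control and 6 Fracture members. Serpina1e held 132 UMIs in Control and 1 in Fracture, a ratio of 76.4 (95% counting interval 13.5 to 3039), and Serpina1b stood at 55.8 and 118 normalised CPM in Control and 5.58 and 2.42 in Fracture (log2 fold change -4.33 ± 0.56 SE, edgeR adjusted p = 0.00082). Among Cytl1-poor members Serpina1e and Serpina1b were not tested, and Cytl1 was not read, since these members were chosen by it. The other falls passed. The Serpina1 genes are near-identical copies, so their reads may have been split between them or lost, and Serpina1b did not pass the edgeR test without Fracture 2 (adjusted p = 0.057).

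Most of the other large falls were in genes of blood cells. Mcpt8 and Prss34 encode proteases of basophils, Pf4 and Ppbp chemokines of platelets and megakaryocytes, and Prg2 the major basic protein of eosinophils. Mcpt8 stood at 202 and 33.8 normalised CPM in Control and 0 and 2.42 in Fracture, and 51.6% of its UMIs of Control 1 came from a single cell. Its level in the other kept cells was 1929, 1550, 17.1 and 17.5 CPM in Control 1, Control 2, Fracture 1 and Fracture 2. Pf4 stood at 789 and 51.6 normalised CPM in Control and 5.58 and 2.42 in Fracture in the members, and Prss34 at 257 and 37.1 normalised CPM in Control and 1.39 and 0 in Fracture. Prss34 held 507 UMIs in Control and 1 in Fracture (ratio 293, 95% counting interval 52.4 to 11610), and Mcpt8 401 and 2 (ratio 116, 31.9 to 961). Prg2 held 84 UMIs in Control and 0 in Fracture, at least 21.4-fold lower with Fracture set at 3 counts over the group. The 16 white blood cell markers summed to 1468, 146, 28.7 and 33.7 CPM in the members and 8955, 6291, 347 and 363 CPM in the other cells, with Ptprc at 0 in the members by the rule. Over all members the log2 fold change was -6.52 for Mcpt8, -7.70 for Prss34, -6.76 for Pf4, -7.20 for Ppbp and -6.61 for Ctla2a. Without the 14 members of Control 1 and 1 of Fracture 2 that carried blood markers, it was -5.51, -6.32, -5.06, -3.89 and -3.78 in that order. Each still passed the test. With Control 1 left out it was -4.56, -5.52, -3.69, -2.84 and -2.85. Without Fracture 2 Mcpt8, Prss34, Pf4, Ppbp, Prg2 and Ctla2a no longer passed, and without Control 1 Ppbp and Ctla2a did not. The part of blood transcripts in these falls was not tested.

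Markers of other cell types in the members varied as follows. The 9 erythroid markers summed to 67.3, 349.6, 353 and 1014 CPM, and 4 of 6 tested rose. The 14 marrow stroma markers summed to 2718, 610.2, 592 and 887 CPM and were highest in Control 1. Of 10 tested, 0 rose and 5 fell, Cxcl12 at 1231 and 137 normalised CPM in Control and 41.8 and 150.3 in Fracture (log2 fold change -2.84 ± 0.82 SE, edgeR adjusted p = 0.048) and Lepr, the leptin receptor of marrow stroma, at 129 and 54.8 normalised CPM in Control and 0 and 9.70 in Fracture (log2 fold change -4.22 ± 0.66 SE, edgeR adjusted p = 0.0024). Cxcl12 made up at least 5 UMIs per 10000 in 40 and 9 Control members and in 0 and 3 Fracture members. In the 65 Control members with Prg4 at 5 to 10 per 10000, of which 42 held a single Prg4 UMI, Cxcl12 stood at 6040 CPM, against 352 to 514 CPM in Control members with more Prg4. Without Control 1 Cxcl12 had a log2 fold change of -0.51 (edgeR adjusted p = 0.23), it did not pass without either Fracture preparation, and the number of marrow stroma genes that fell ranged from 1 without Fracture 2 to 11 without Control 2. Endothelial markers summed to 114, 94.9, 64.3 and 64.96 CPM and smooth muscle markers to 173, 276, 35.6 and 92.6 CPM, and in each list 1 gene was tested and fell. The osteoblast list summed to 7855, 14347, 28624 and 18175 CPM, and of 9 tested, 2 rose and 1 fell. The limit on Bglap and Bglap2 had kept cells rich in these genes out of the members. Of the 15 universal fibroblast genes tested, 6 rose and 4 fell. Of the immediate early and heat shock genes, which dissociation can raise, 21 tested, 1 rose and 4 fell, and without Control 2, 13 of 24 fell. Without Fracture 2 none of the erythroid genes rose, 2 universal fibroblast genes rose and 2 fell, and 1 osteoblast gene rose. The part of these cell types in the results was not tested. Called doublets made up 1.58% of kept cells and 1 member.

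**Figure D5:**
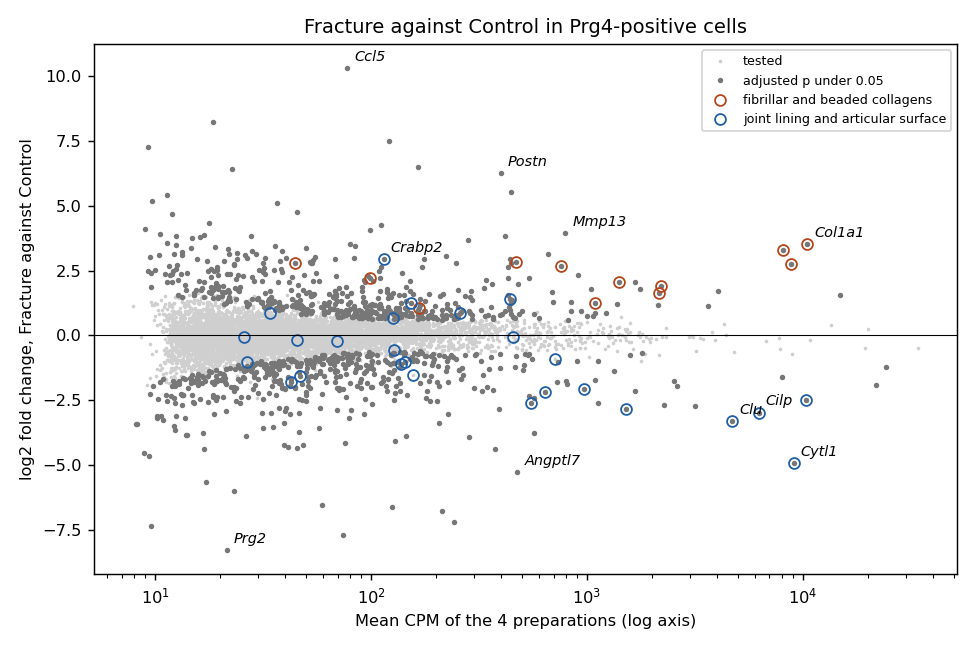
Mean normalised CPM of the 4 preparations (log axis) against the log2 fold change of Fracture over Control for the 7553 genes tested in Prg4-positive cells, with genes at an edgeR adjusted p under 0.05 in dark grey. The 12 circled collagens all lie above 0, with Col1a1 at 3.51, while Cytl1, Clu and Cilp lie at -4.90, -3.30 and -2.97.

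To see where these cells differed from their nearest neighbours, the fracture effect was set beside that in 510 other fibroblasts (65, 32, 192 and 221 cells). These held at least 5 UMIs of Clec3b, Dpt and Mfap5 and any level of Prg4, with the other limits kept. Prg4 UMIs were found in 35, 22, 79 and 95 of them. They held 3.78%, 29.1%, 30.7% and 38.4% of all Prg4 UMIs of their preparation. The comparison thus does not set cells with Prg4 against cells without it. Both sets came from the same preparations, and the difference itself was tested with the preparation as a block. Of 8696 genes, 186 (2.14%) differed. With the Cytl1-poor members alone in place of all members, a setting added after seeing the data, only 29 differed. Cytl1-rich cells made up 6.15%, 3.13%, 0% and 0% of the other fibroblasts (4, 1, 0 and 0 cells). Most of the differences described next therefore cannot be told apart from the makeup of the members. Col3a1 rose more in the Prg4-positive cells (log2 fold change 3.31 against 1.36, difference 1.95 ± 0.17 SE, edgeR adjusted p = 0.0012). Col1a1 did so by less (3.51 against 2.66, difference 0.87 ± 0.18 SE, edgeR adjusted p = 0.038), and Col14a1 rose in the Prg4-positive cells (2.81 against 0.37, difference 2.71 ± 0.35 SE, edgeR adjusted p = 0.0040). In all 5 of 12 collagens differed, each with the larger rise in Prg4-positive cells, the others being Col5a1 (2.68 against 1.57, difference 1.12 ± 0.21 SE, edgeR adjusted p = 0.027) and Col5a3 (2.21 against 0.93, difference 1.33 ± 0.29 SE, edgeR adjusted p = 0.047). Mmp2 (3.83 against 1.92, difference 1.96 ± 0.23 SE, edgeR adjusted p = 0.0027) and Mmp14 (3.67 against 1.92, difference 1.69 ± 0.28 SE, edgeR adjusted p = 0.015) rose more in the Prg4-positive cells. Crabp2 rose in both and by more in the Prg4-positive cells (2.95 against 0.91, difference 2.01 ± 0.43 SE, edgeR adjusted p = 0.043). With each preparation left out in turn, Col3a1, Col14a1 and Mmp2 passed each time. Without the preparation as a block none of the 5 collagens passed (edgeR adjusted p = 0.099 for Col3a1, 0.13 for Col14a1, 0.45 for Col1a1, 0.17 for Col5a1 and 0.15 for Col5a3), while Mmp2, Mmp14 and Crabp2 did. With Cytl1-poor members none of these 8 genes passed, at differences of 1.38 for Col3a1 (edgeR adjusted p = 0.056), 1.91 for Col14a1, 0.21 for Col1a1, 1.08 for Col5a1, 0.47 for Col5a3, 1.04 for Mmp2, 0.88 for Mmp14 and 0.94 for Crabp2 (edgeR adjusted p = 0.16 for Col5a1, 0.15 for Col14a1, and 0.21 to 0.89 for the other 5). The edgeR test did not pass for Col1a1 without Control 1 or Fracture 1 (adjusted p = 0.11 and 0.18), for Mmp14 without Fracture 1 (0.12), for Crabp2 with cells of at least 3000 UMIs (0.057) or without Fracture 2 (0.18), for Col5a1 without Control 1, Fracture 1 or Fracture 2 (0.085, 0.23 and 0.13) and for Col5a3 without either Fracture preparation (0.17 and 0.35). The number of genes that differed was 483 without Control 2, 106 without Fracture 1 and 88 without Fracture 2.

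Falls of joint genes also differed between the sets. Abi3bp (-2.84 against -1.14, difference -1.69 ± 0.22 SE, edgeR adjusted p = 0.0042), Clu (-3.30 against -1.98, difference -1.27 ± 0.23 SE, edgeR adjusted p = 0.023) and Wif1 (-2.60 against -1.13, difference -1.43 ± 0.28 SE, edgeR adjusted p = 0.032) fell by more in the Prg4-positive cells. 1500015O10Rik fell in the Prg4-positive cells and did not pass in the other fibroblasts, and the difference passed (-2.50 against 0.79, difference -3.51 ± 0.45 SE, edgeR adjusted p = 0.0040). Cytl1 went the other way (-4.90 against -8.78, difference 3.88 ± 0.33 SE, edgeR adjusted p = 0.0012), and so did Cd55, a complement inhibitor of the synovial lining (-0.55 against -1.99, difference 1.42 ± 0.26 SE, edgeR adjusted p = 0.023). The other fibroblasts of Fracture held only 4 and 11 Cytl1 UMIs, and only 4 of those of Control 1 and 1 of Control 2 were Cytl1-rich. Their fall in Cytl1, and the difference from the members, thus rest on few counts and few cells. For Cilp the difference missed the threshold (-2.97 against -2.02, difference -0.99 ± 0.22 SE, edgeR adjusted p = 0.051), as it did for Creb5 (-1.11 against -1.63, difference 0.51 ± 0.25 SE, edgeR adjusted p = 0.45). Vcan moved in opposite directions (-1.14 against 0.63, difference -1.76 ± 0.22 SE, edgeR adjusted p = 0.0035). Cytl1 was not read with Cytl1-poor members, since they were chosen by it. With those members Abi3bp and Vcan still differed (-1.64 and -1.77, edgeR adjusted p = 0.037 and 0.032). 1500015O10Rik, Clu and Cd55 did not (-1.77, -0.97 and 0.37, edgeR adjusted p = 0.090, 0.33 and 0.84), and the difference in Wif1 turned to 0.48 (edgeR adjusted p = 0.87). Without the preparation as a block the differences in Clu, Wif1, Cytl1 and Cd55 missed the edgeR threshold (adjusted p = 0.42, 0.27, 0.11 and 0.21). Without Fracture 2 the differences in Clu, Wif1 and Cd55 missed the edgeR threshold (adjusted p = 0.13, 0.32 and 0.37), and that in Wif1 did so also without Control 1 or Fracture 1 (0.078 and 0.12). Fibroblasts of the other set made up 0.510%, 0.404%, 1.62% and 1.73% of kept cells (exact permutation p = 0.333).

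The second comparison was with 91 Prg4-positive cells over the cartilage limit of the rule (26, 8, 30 and 27 cells), among them only 8 of Control 2. Of 7041 genes, 35 (0.497%) differed in their fracture effect. Col12a1 rose in the Prg4-positive cells under the limit and did not pass in those over it (2.83 against 0.22, difference 2.60 ± 0.37 SE, edgeR adjusted p = 0.0091), and Timp1 moved in opposite directions (1.78 against -1.55, difference 3.21 ± 0.28 SE, edgeR adjusted p = 9.6e-05). Cthrc1 rose in both and by more under the limit (5.53 against 2.64, difference 2.81 ± 0.50 SE, edgeR adjusted p = 0.025). Col1a1 (3.51 against 5.81, difference -2.44 ± 0.33 SE, edgeR adjusted p = 0.0071) and Col3a1 (3.31 against 5.01, difference -1.78 ± 0.31 SE, edgeR adjusted p = 0.025) rose by less under the limit than over it. Without the preparation as a block Col12a1, Cthrc1, Col1a1 and Col3a1 missed the edgeR threshold (adjusted p = 0.18, 0.28, 0.18 and 0.27), and Timp1 passed. Without Control 1 the differences in Cthrc1 and Col3a1 missed the edgeR threshold (adjusted p = 0.80 and 0.27). The number of genes that differed was 107 without Control 2, 62 without Fracture 1 and 78 without Fracture 2. Of the joint genes, Abi3bp fell by more under the limit (-2.84 against -1.54, difference -1.36 ± 0.28 SE, edgeR adjusted p = 0.042) and Aqp1, a water channel, rose by less (0.85 against 3.88, difference -2.99 ± 0.53 SE, edgeR adjusted p = 0.025). Both missed the edgeR threshold without the preparation as a block (adjusted p = 0.17 and 0.11) and without Control 1 (0.069 and 0.24), and Abi3bp also without Fracture 2 (0.082). Cilp and Clu fell in both sets, and the differences were 0.11 ± 0.43 SE (edgeR adjusted p = 1.00) and 0.15 ± 0.37 SE (edgeR adjusted p = 0.98). Over the limit, 194 of 4014 genes (4.83%) were called, against 12.7% of 9042 genes in the Clec3b, Dpt and Mfap5 fibroblasts.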

How the data were processed

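The deposited tables of the 8 libraries listed, for every gene and barcode, the raw count of UMIs, without normalisation. Per the labels the authors used bcl2fastq 2.19.1.403, UMI-tools 1.0.0, STAR 2.7.3a and featureCounts 1.6.4 with mm10, while their methods name STARsolo and GENCODE M23 for the study. The methods name EmptyDrops as a filter on count matrices, with cell limits for other data sets of the study. Whether these tables were filtered with it before deposit is not given in the sources used here, and Control tables reach down to 1 UMI while the smallest Fracture barcode holds 1929. Barcodes with 500 to 6000 genes and at most 25% mitochondrial UMIs were kept (45328 of 48903). The libraries of a preparation, which shared 13 to 23 kept barcodes against 10 to 20 between preparations, were summed, giving n = 2 per group. The 368 genes without a record in Control 1 were left out of tests. The members and gene lists were chosen with earlier results of these data known.

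Groups were compared in edgeR 4.0.16 with its quasi-likelihood test (TMM, filterByExpr, Benjamini-Hochberg, calls at an adjusted p under 0.05; SE is the log2 fold change over the root of F), with limma 3.58.1 and R 4.3.3. DESeq2 1.42.0 was an alternative. For shares, exact permutation tests (two-sided, scipy 1.17.1) were used. Doublets were called by scrublet in scanpy 1.11.5 at an expected 6%, and were kept in the members. Python 3.11.15, numpy 2.4.6, pandas 2.3.3 and matplotlib 3.10.9 were used. Of 15 blood genes Ptprc was judged apart. Cells with blood markers were those with any Ptprc UMI or at least 100 UMIs per 10000 of the other blood genes together. Red blood cells were those with at least 1000 UMIs per 10000 of haemoglobin genes. Named genes are the 12 largest rises and falls among called genes whose groups do not overlap and that average at least 20 CPM, without rule, haemoglobin and mitochondrial genes, the 5 largest differences each way, and list members. Against a group with 0 UMIs the fold was set by a floor of 3 counts over the group. Intervals and floors cover counting error only. Coordinates are from GENCODE M21 (GRCm38), which held 26892 of the gene names and lacked 2064, and upstream bases from RefSeq, trimmed where an annotated exon began. Of the 15 leading genes, 1 is not reported here. The tests were tried on simulated counts.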

Additional observations from a re-analysis of the deposited data

Results flagged for a closer look

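Results flagged here are genes whose fracture effect differed between cell sets by the edgeR test of the difference itself, given as the log2 fold change in the Prg4-positive cells minus that in the other set. Against the Clec3b, Dpt and Mfap5 fibroblasts the 5 largest positive differences by edgeR were Npy (4.91 ± 0.83 SE, adjusted p = 0.020), Spon2 (4.76 ± 0.43 SE, adjusted p = 0.0012), Ifi27l2a (4.64 ± 0.56 SE, adjusted p = 0.0029), Ccl2 (4.57 ± 0.96 SE, adjusted p = 0.041) and Qpct (3.91 ± 0.65 SE, adjusted p = 0.015). Npy fell in both sets, by 3.76 on the log2 scale in the Prg4-positive cells, and was at 0 UMIs in the other fibroblasts of Fracture, so its difference depends on the prior count. By edgeR the difference in Npy was lost without Fracture 1 or Fracture 2 (adjusted p = 0.078 and 0.081), as was that in Qpct (0.082 and 0.067), and those in Ifi27l2a and Ccl2 were lost without Control 1 (0.092 and 0.23). Spon2 held no UMI in Control 2 members, and its difference was 10.6 without Control 1, so its size depends on the prior count as well. Without the preparation as a block Npy, Ifi27l2a and Ccl2 were not called (edgeR adjusted p = 0.12, 0.073 and 0.19), and with Cytl1-poor members Npy, Ccl2 and Qpct were not (0.21, 0.16 and 0.12). Ccl2 rested on 6 Fracture members, as given above, and Ifi27l2a, an interferon-responsive gene, stood at 1.66 and 3.40 CPM in Control members and 23.4 and 41.7 CPM in Fracture members. The 5 largest negative differences by edgeR were Ibsp (-5.63 ± 0.98 SE, adjusted p = 0.018), Col10a1 (-5.49 ± 0.94 SE, adjusted p = 0.017), Ctla2a (-5.40 ± 0.98 SE, adjusted p = 0.021), Lyz2 (-5.19 ± 0.84 SE, adjusted p = 0.012) and Cenpp (-4.52 ± 0.79 SE, adjusted p = 0.019). Ibsp, a bone matrix protein, and Col10a1, the collagen of hypertrophic cartilage, rose in the other fibroblasts, with log2 fold changes of 4.29 and 5.69, against -1.76 and -0.33 in the Prg4-positive cells. Without Control 1 the difference in Lyz2 reversed to 3.12 (edgeR adjusted p = 0.76) and that in Ctla2a was -2.21 (edgeR adjusted p = 0.45), and Ctla2a was lost also without Fracture 1 (0.16). Without the preparation as a block Ctla2a and Lyz2 were not called (edgeR adjusted p = 0.39 and 0.23), and with Cytl1-poor members Col10a1 and Cenpp were not (0.24 and 0.22). Lyz2 encodes a lysozyme of myeloid cells, and the sums of white blood cell markers are given beside the falls above.

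Against the Prg4-positive cartilage cells, of which Control 2 held 8, the 5 largest positive differences by edgeR were C1qtnf3 (3.87 ± 0.66 SE, adjusted p = 0.023), Ccnd1 (3.41 ± 0.69 SE, adjusted p = 0.043), Timp1 (3.21 ± 0.28 SE, adjusted p = 9.6e-05), Cthrc1 (2.81 ± 0.50 SE, adjusted p = 0.025) and Col12a1 (2.60 ± 0.37 SE, adjusted p = 0.0091). The 5 largest negative differences by edgeR were Itgbl1 (-8.16 ± 1.53 SE, adjusted p = 0.035), Chrdl2 (-5.79 ± 1.14 SE, adjusted p = 0.039), Il11 (-4.96 ± 0.99 SE, adjusted p = 0.041), Pf4 (-4.60 ± 0.82 SE, adjusted p = 0.025) and Adamts2 (-3.39 ± 0.65 SE, adjusted p = 0.034). Without Control 1 all 5 negative differences missed the edgeR threshold (adjusted p = 0.63, 0.51, 0.32, 0.50 and 0.21), as did those in Ccnd1 and Cthrc1 (0.45 and 0.80). That in C1qtnf3 missed it without Control 2 (0.094), and those in Ccnd1 and Pf4 also without Fracture 1 (0.082 and 0.61). Without the preparation as a block the edgeR test called only Timp1 of these 10 genes (adjusted p = 0.15 to 0.75 for the other 9). Itgbl1 was at 0 UMIs in the cartilage cells of Control, so its difference depends on the prior count. Chrdl2, a BMP antagonist of cartilage, and Il11 rose in the cartilage cells, with log2 fold changes of 4.85 and 4.997.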

How the results depend on the processing

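Against 971 genes called in the Prg4-positive cells, 1504 were called with no filter on low counts, 603 with Prg4 at 10 or more per 10000, 445 with a cartilage limit of 20, 338 with members thinned to 2000 UMIs and 435 with DESeq2. With the genes that have no record in Control 1 left in the table, 460 were called, a setting chosen after seeing the data, as was the limit on Cytl1 (414 called). Leaving out 1 preparation gave 255 to 1433 genes in the Prg4-positive cells, 561 to 1415 in the Clec3b, Dpt and Mfap5 fibroblasts and 171 to 304 in the Prg4-positive cartilage cells. The causes of these changes were not tested, other than that thinning left 2513 genes to test. Whether the numbers pair the Control and Fracture preparations cannot be told with 2 per group (correlation of same-numbered deviations 0.0367). With the numbers as a replicate block 1148 genes were called, 965 of them among the 971. The differences from the other cell sets, 186 and 35 genes, became 99 and 3 with no replicate block, the former 29 with Cytl1-poor members (added after seeing the data, with the difference in Wif1 reversed to 0.48), and 88 to 483 and 35 to 107 with 1 preparation left out. All 24 named genes kept their direction in the alternatives that gave a value. Of them 7 no longer passed without Fracture 2, 2 without Control 1, 4 with the absent genes left in, 1 with a cartilage limit of 20 and 4 with DESeq2 (H19, Spon2, Ppbp and Myoc). The share of members with a Top2a or Mki67 UMI differed by -3.00 percentage points when thinned to 1000 UMIs, against 7.28 at 2000. The difference in Lyz2 lay between -6.08 and 3.12 with 1 preparation left out, and reversed without Control 1. Depth limits the Control members, of which 66 held under 2000 UMIs.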

Other observations

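Comp, the cartilage oligomeric matrix protein of tendon and cartilage, was among the most abundant transcripts of the Prg4-positive cells, at 10484, 10213, 7538 and 5623 CPM in Control 1, Control 2, Fracture 1 and Fracture 2. Fmod, fibromodulin, was highest in the Cytl1-poor Fracture members, at 3317 and 2602 CPM, and lowest in the Cytl1-poor members of Control 2, at 195 CPM. The 8 Cytl1-rich members of Fracture 2 held Prg4 at a median of 534 UMIs per 10000, higher than any other split of a preparation, and Clu at 4521 CPM against 831 CPM in the other members of that preparation. Tppp3, a tubulin-binding protein of tendon sheath and synovium, stood at 587 and 1264 CPM in the Cytl1-poor and 229 and 179 CPM in the Cytl1-rich members of Control 1 and 2. These values follow a split made on the same cells and were not tested.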
